A study of Homo sapiens with 6 samples.

Results

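The 37 genes here encode chaperones, folding enzymes, translocation subunits, degradation factors and stress sensors of the endoplasmic reticulum (ER), and the transcription factor XBP1. They were listed by symbol, and all 37 were found among 19503 named genes of the deposited table. Expression was measured by RNA sequencing in HLE cells, a human hepatocellular carcinoma line. Lines were made with lentivirus carrying an shRNA against ZNF281, a zinc-finger transcription factor (kd.1), a second shRNA against the same gene (kd.2), or a control shRNA, each at a multiplicity of infection of 10 with 7 days of puromycin selection. Every group, the control included, thus carried an shRNA vector and had been selected. Each line gave 2 libraries, 6 in all. Whether duplicates were grown as separate cultures is not stated, so p-values measure the spread between libraries, which may be technical.

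ZNF281 was at 4.35 and 4.71 FPKM (fragments per kilobase of transcript, scaled to library size) in kd.1 and at 4.37 and 4.47 FPKM in kd.2, against 9.52 and 8.43 FPKM in the control. Hepatocyte markers were close to absent: 4 of 6 listed genes were in the table, their levels summed to between 2.35 and 4.37 FPKM in every library, and APOA1 and TTR were at or below 0.1 FPKM throughout. The simple epithelial markers, mostly KRT8 and KRT18, summed to 1190 and 1306 FPKM in the kd.1 libraries, 2253 to 2319 FPKM in kd.2 and 2548 to 2615 FPKM in the control, while CDH1 and EPCAM were not among the tested genes. The fibroblast markers, mostly LUM and DCN, summed to between 282.2 and 302.4 FPKM in kd.1, 231.9 and 233.1 FPKM in kd.2 and 270.1 and 284.8 FPKM in the control. The sums hide larger shifts of single genes. Of 3 tested in limma, 2 rose in kd.1 (log2 changes from -0.03 to 0.98) and 1 fell in kd.2 (from -0.93 to -0.07). Set against each other, 2 of the 3 were lower in kd.2 than in kd.1, the lowest at -1.27. The endothelial markers were low and lower still in both knockdowns: they summed to between 1.24 and 1.47 FPKM in kd.1 and 1.23 and 1.43 FPKM in kd.2, against 2.54 and 3.03 FPKM in the control, and CDH5, the 1 tested gene among them, fell by 1.32 and 1.38 on the log2 scale (limma, adjusted p = 0.00371 and 0.00264). Leukocyte markers summed to at most 1.68 FPKM. The part of these marker shifts in the results below was not tested, and in bulk RNA a change in cell makeup and a change per cell cannot be told apart.

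The ER folds and ships secreted and membrane proteins. When unfolded protein builds up, sensors in its membrane start the unfolded protein response: IRE1 (gene ERN1) splices the mRNA of the transcription factor XBP1, PERK (EIF2AK3) phosphorylates the initiation factor eIF2 and slows translation, and ATF6 is cut in the Golgi to release a transcription factor. Their best known targets are the chaperone BiP (HSPA5) and its partners, the disulfide isomerases, the translocation channel and the machinery that returns misfolded protein to the cytosol for degradation. The deposited values are per gene and do not separate spliced from unspliced XBP1 mRNA.

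ATF6 and XBP1 are known to act on these genes through the ER stress response element (ERSE), searched here as CCAAT, any 9 bases and CCACG, and through ERSE-II, ATTGG, any 1 base and CCACG, on both strands of the 300 bases around each gene start (250 before and 50 after; RefSeq, GRCh38.p14). Of the 37 genes, 33 had a promoter entry. ERSE was found in 7 of these 33 (21.2%), against 25 of all 27305 genes with an entry (0.0916%) and 15 of the 8940 tested genes with one (0.168%). ERSE-II was found in 3 of 33 (9.09%), against 0.0696% of all and 0.157% of tested genes with an entry. Known targets of the response are part of the list, so this is a description of its promoters and not a result of the knockdowns. The sequences below are those of genes with different outcomes in the knockdown lines; the capitals mark the fixed letters of the element, each printed 5′ to 3′ on the strand that holds it.
XBP1, chr22:28800598-28800626, minus strand: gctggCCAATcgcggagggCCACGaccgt
CANX, chr5:179698773-179698801, plus strand: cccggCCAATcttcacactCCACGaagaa
HSPA5, chr9:125241386-125241414, minus strand: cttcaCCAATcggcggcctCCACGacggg
CALR, chr19:12938379-12938407, minus strand: accgaCCAATgatggtcgaCCACGcgtgg
CRELD2, chr22:49918549-49918577, minus strand: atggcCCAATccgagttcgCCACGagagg
SDF2L1, chr22:21642109-21642129, minus strand: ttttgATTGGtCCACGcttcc
HERPUD1, chr16:56932020-56932040, plus strand: cgccgATTGGgCCACGttggg
The element lay on the strand of the gene in XBP1, CANX, HSPA5 and HERPUD1 and on the opposite strand in CALR, CRELD2 and SDF2L1. HSP90B1, PDIA6 and HYOU1 were the other carriers, HSP90B1 with 2 ERSE and HYOU1 with 2 ERSE-II. The shorter UPRE core TGACGTGG, overlapping an ERSE-II by some bases in HYOU1, was found in HYOU1 and SEC62 only among the 33, and in 0.927% of all genes with an entry.

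More of these genes were higher than lower in each ZNF281 knockdown line. Calls rest on limma (Benjamini-Hochberg adjusted p under 0.05), fitted to log2(FPKM + 0.1) of the 10851 genes that reached 1 FPKM in at least 2 libraries; all 37 passed that filter. In kd.1, 12 of 37 rose (32.4%) and 2 fell (5.41%), against 15.8% and 13.4% of all tested genes (29.2% in either direction). In kd.2, 14 rose (37.8%) and 4 fell (10.8%), against 15.7% and 22.2% of all tested genes (37.9% in either direction). Their median log2 fold change was 0.11 in kd.1 and 0.14 in kd.2, and that of all tested genes 0.02 in kd.1 and -0.03 in kd.2. With the mean of both knockdowns set against the control, 15 rose (40.5%) and 3 fell (8.11%), against 16.1% and 18.6% of all tested genes (34.7% in either direction). The 37 genes had a median control level of 50.84 FPKM, against 12.8 FPKM for all tested genes. The shares are thus not matched for level, and the part of level in them was not tested.

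XBP1, ATF6, EIF2AK3, CANX, DNAJC3, SSR1, SEC63 and SEC24D rose in each line (8 of 37, 21.6%, against 6.46% of all tested genes). In limma, 0 fell in each line (6.42% of all tested genes), also at an unadjusted p under 0.05, where 11 were higher in each. Both comparisons use the same control libraries. Control replicate 2 was the lower control in each of the 8 genes that rose in each line, and in 21 of the 37 (56.8%). Without control replicate 2, the median log2 change of the 37 over both knockdowns was 0.08, against 0.15 with all libraries. All 4 knockdown libraries lay above both controls for 15 of the 37 (40.5%, against 19% of tested genes) and below both for 1, SEC61B (19.3% of tested genes). With every column scaled to a common FPKM sum, 15 rose and 2 fell in kd.1, 19 rose and 2 fell in kd.2, and 17 rose and 0 fell over both; the share of all called genes that were higher then stood at 69% in kd.1 and 61.3% in kd.2, against 54.1% and 41.5% as deposited. In fits with 1 library left in a line, fewer of the 37 rose in that line, and fewer of all tested genes did. Without kd.1 replicate 2, the share risen in kd.1 was no larger than that of all tested genes. In the other such fits it was larger. The median log2 change of the 37 was then 0.12 and 0.10 in kd.1 (without replicate 1 and 2) and 0.13 in kd.2 without either library.

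**Figure D1:**
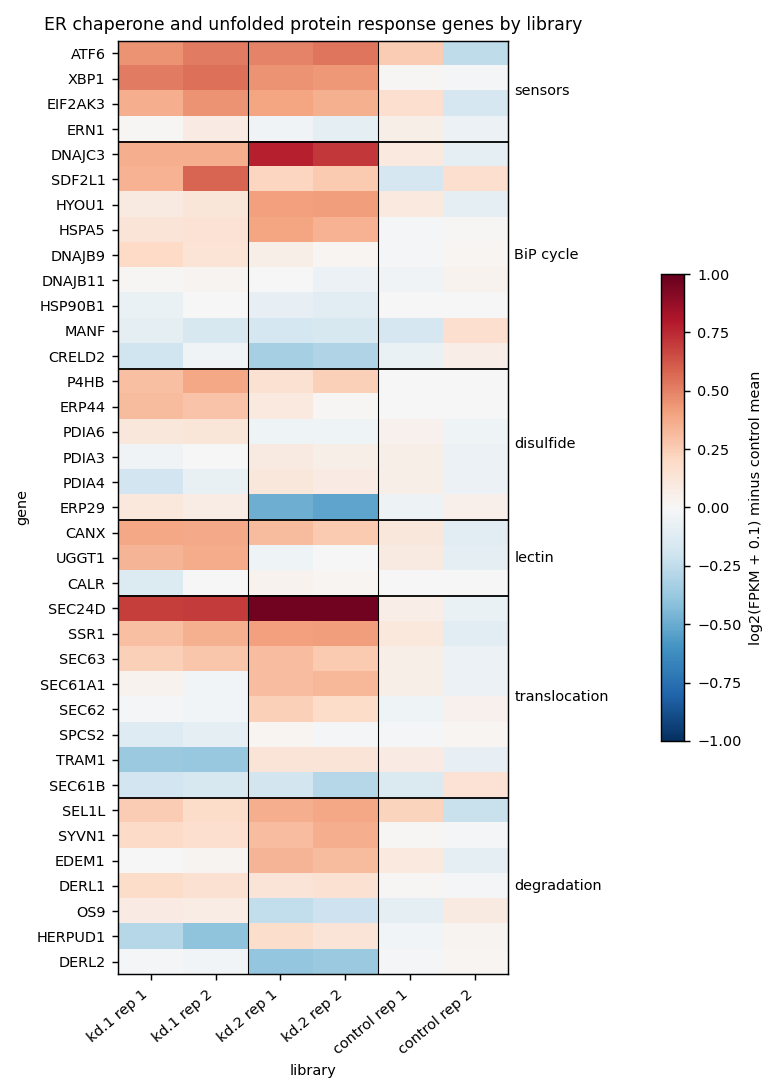
Heat map of log2(FPKM + 0.1) minus the control mean for each gene (rows, grouped by role) in the 2 kd.1, 2 kd.2 and 2 control libraries (columns). SEC24D, XBP1 and ATF6 are red in all 4 knockdown libraries, ERP29 is blue in kd.2 and TRAM1 in kd.1, and the control columns differ from each other most in ATF6 and SEL1L.

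The control duplicates differed more than the knockdown duplicates. Over the 37 genes, log2 differences between duplicates had an SD of 0.0692 in kd.1 and 0.0431 in kd.2, against 0.185 in the control. Without control replicate 1, more of the 37 were called in each line, and so were more of all tested genes. The median log2 change of the 37 was then 0.12 in kd.1 and 0.15 in kd.2, and that of all tested genes 0.03 and -0.03. Without control replicate 2, the medians were 0.07 and 0.13 for the 37 and 0.01 and -0.04 for all tested genes. Summed over the list, the genes stood at 3784 and 3898 FPKM in kd.1 and 3921 and 3887 FPKM in kd.2, against 3677 and 3640 FPKM in the control. They made up 0.733% and 0.755% of the FPKM of named genes in kd.1 and 0.766% and 0.768% in kd.2, against 0.703% and 0.641% in the control. The lower share of control replicate 2 goes with its larger total over named genes, 568019.6 FPKM against 523173.3 FPKM in control replicate 1.

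Among the sensors and their transcription factors, XBP1 had the smallest spread. XBP1 (gene ID 7494; GRCh38, chromosome 22, 28794555 to 28800597, minus strand) stood at 115.31 and 117.52 FPKM in kd.1 and 109.65 and 108.45 FPKM in kd.2, against 80.73 and 79.75 FPKM in the control. The 4 knockdown libraries were all above both controls. Its log2 fold change was 0.54 ± 0.06 (SE) in kd.1 and 0.44 ± 0.06 in kd.2 (limma, adjusted p = 0.000395 and 0.00102), and both calls held under every alternative tried. ERN1, which encodes the enzyme that splices XBP1, was the lowest gene of the list, at 1.16 and 1.22 FPKM in kd.1 and 1.12 and 1.07 FPKM in kd.2, against 1.2 and 1.1 FPKM in the control. Its changes of 0.05 ± 0.13 in kd.1 and -0.06 ± 0.13 in kd.2 did not pass, and in each line its libraries overlapped the controls.

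ATF6 was at 21.4 and 22.37 FPKM in kd.1 and 22 and 22.71 FPKM in kd.2, against 18.68 and 13.04 FPKM in the control. The knockdown libraries lay close together while the controls were far apart. On the log2 scale ATF6 rose by 0.48 ± 0.14 in kd.1 and by 0.52 ± 0.14 in kd.2 (limma, adjusted p = 0.0318 and 0.0206). EIF2AK3, the gene of PERK, was at 7.76 and 8.26 FPKM in kd.1 and 7.93 and 7.72 FPKM in kd.2, against 6.77 and 5.36 FPKM in the control. It rose by 0.40 ± 0.11 in kd.1 and 0.37 ± 0.11 in kd.2 (limma, adjusted p = 0.0274 and 0.0301). In each gene control replicate 2 was the lower control, and the size of the change rests on it: without control replicate 2, ATF6 stood at 0.23 in kd.1 and 0.26 in kd.2 (limma, adjusted p = 0.0217 and 0.0111) and EIF2AK3 at 0.24 and 0.21 (0.0457 and 0.065). ATF6 stood at 0.74 in kd.1 without control replicate 1. The ATF6 and EIF2AK3 calls in kd.1 were lost without any 1 of the kd.1 or kd.2 libraries (limma, adjusted p = 0.0605 to 0.152), without a filter (0.0682 and 0.0566) and with only kd.1 and the control in the fit (0.0651 and 0.0615), and that of ATF6 also under plain moderation (0.0609). Their calls in kd.2 were lost without either kd.2 library (0.0979 to 0.154), and that of EIF2AK3 also without control replicate 2 (0.065) or a filter (0.0606).

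**Figure D2:**
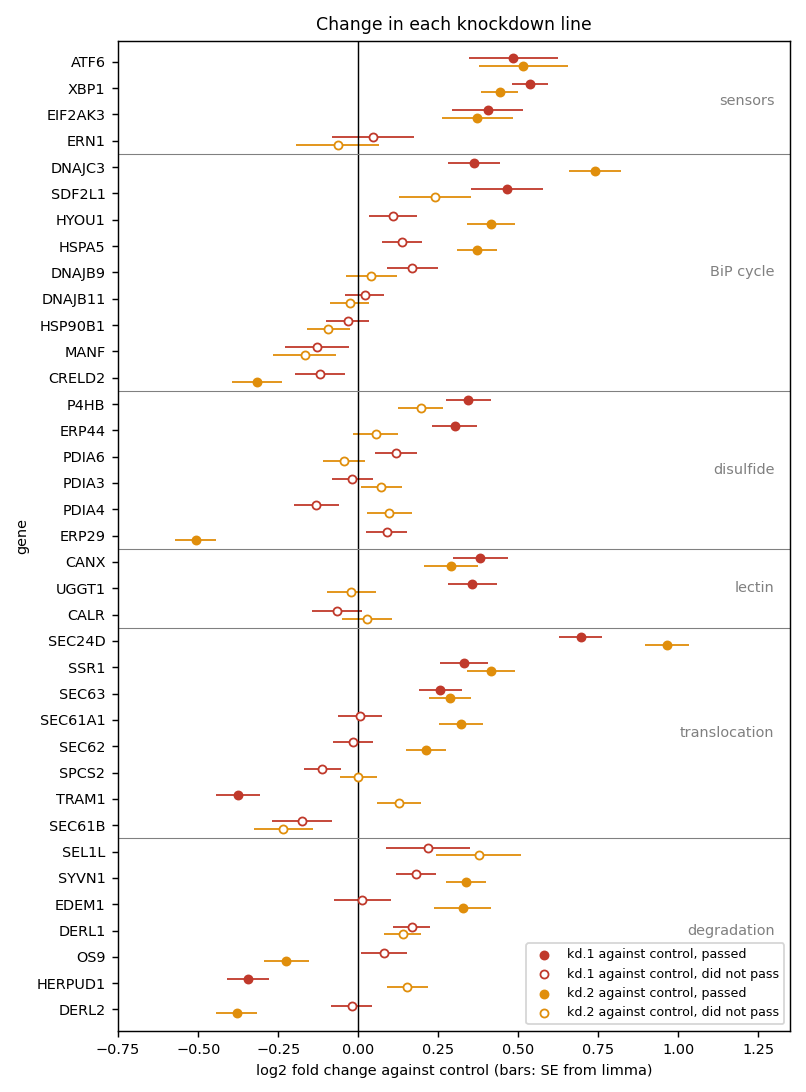
Log2 fold change of each gene against the control in kd.1 (red) and kd.2 (orange), with SE bars from limma; filled points passed at an adjusted p under 0.05 and open points did not, and horizontal lines part the roles. The control libraries are shared by both colours. SEC24D lies farthest to the right at 0.69 and 0.96 and ERP29 farthest to the left at -0.51 in kd.2.

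Of 9 genes of the BiP cycle, 2 rose and 0 fell in kd.1 (22.2% and 0%, against 15.8% and 13.4% of all tested genes), also at an unadjusted p under 0.05 in limma. In kd.2, 3 rose and 1 fell (33.3% and 11.1%, against 15.7% and 22.2%). DNAJC3, a co-chaperone of BiP that also inhibits PERK (gene ID 5611; chromosome 13, 95677139 to 95794989), was at 13.43 and 13.43 FPKM in kd.1 and 17.91 and 17.07 FPKM in kd.2, against 11.14 and 9.75 FPKM in the control. The 3 groups did not overlap. DNAJC3 rose by 0.36 ± 0.08 in kd.1 and by 0.74 ± 0.08 in kd.2 (limma, adjusted p = 0.0121 and 0.000504). Its kd.1 call was lost without kd.1 replicate 1 (0.0731) or 2 (0.0744), and its kd.2 call held under every alternative.

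HSPA5, the gene of BiP itself (gene ID 3309; chromosome 9, 125234853 to 125241330), was at 214.65 and 217.4 FPKM in kd.1 and 258.28 and 250.22 FPKM in kd.2, against 194.41 and 198.62 FPKM in the control. Kd.2 was highest and the groups did not overlap. HSPA5 rose by 0.37 ± 0.06 in kd.2 (limma, adjusted p = 0.00302), a call lost without kd.2 replicate 1 (0.0558), and was 0.14 ± 0.06 above control in kd.1, which did not pass (0.129; 0.0365 without control replicate 2). HYOU1, the large nucleotide exchange factor of BiP, was at 54.01 and 55.31 FPKM in kd.1 and 67.47 and 67.87 FPKM in kd.2, against 54.34 and 47.33 FPKM in the control. It rose by 0.42 ± 0.07 in kd.2 (limma, adjusted p = 0.00397), under every alternative, while the kd.1 libraries overlapped the controls and were called higher only in the fit without control replicate 1 (0.21, adjusted p = 0.00688).

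SDF2L1, which keeps unfolded clients soluble with the co-chaperone DNAJB11, was at 53.38 and 62.75 FPKM in kd.1 and 48.71 and 50.4 FPKM in kd.2, against 37.38 and 47.03 FPKM in the control. It rose in kd.1 by 0.46 ± 0.11 (limma, adjusted p = 0.0173; 0.119 without kd.1 replicate 2), and its 0.24 ± 0.11 in kd.2 did not pass (0.123). Without control replicate 1 the change in kd.1 was 0.30 (0.0268), and without control replicate 2 that in kd.2 was 0.41 (0.0119, limma). CRELD2, a secreted ER stress protein, was at 27.88 and 31.22 FPKM in kd.1 and 25.43 and 26.01 FPKM in kd.2, against 30.58 and 33.58 FPKM in the control. It was the 1 gene of the BiP group that fell, with a log2 change of -0.32 in kd.2 (SE 0.08, limma adjusted p = 0.014), with losses of the call without kd.2 replicate 1 (0.108) or 2 (0.0814) and with a common FPKM sum (0.0625). The abundant HSP90B1 (GRP94), DNAJB11, DNAJB9 and the growth factor MANF passed in neither line, with log2 changes between -0.17 and 0.17. MANF was at 78.54 and 74.96 FPKM in kd.1 and 74.24 and 75.25 FPKM in kd.2, against 74.79 and 94.23 FPKM in the control, and without control replicate 1 it was called lower in each line (-0.30 and -0.33; limma adjusted p = 0.00158 and 0.000679). DNAJB9 shares 183 exon bases with THAP5 on the opposite strand, and strand use in the counting is not given in the sources used here.

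Among the 6 disulfide enzymes, P4HB and ERP44 rose in kd.1 (33.3%, against 15.8% of all tested genes) and ERP29 fell in kd.2 (16.7%, against 22.2%). P4HB, protein disulfide isomerase itself, was at 349.99 and 372.11 FPKM in kd.1 and 316.02 and 335 FPKM in kd.2, against 285.29 and 283.33 FPKM in the control. It rose by 0.34 ± 0.07 in kd.1 (limma, adjusted p = 0.00842; 0.105 without kd.1 replicate 2) and was 0.19 ± 0.07 above control in kd.2 (0.0581; 0.0173 and 0.0317 without control replicate 1 and 2). ERP44, which retains clients in the early secretory pathway, was at 14.57 and 14.29 FPKM in kd.1 and 12.52 and 11.78 FPKM in kd.2, against 11.68 and 11.71 FPKM in the control. It rose by 0.30 ± 0.07 in kd.1 (limma, adjusted p = 0.0137), a call lost without kd.1 replicate 1 (0.107) or 2 (0.0853).

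ERP29, a chaperone with the fold of these enzymes but without their redox activity (gene ID 10961; chromosome 12, 112013316 to 112023451), was at 130.37 and 127.47 FPKM in kd.1 and 86.5 and 83.96 FPKM in kd.2, against 117.04 and 125.6 FPKM in the control. The kd.2 libraries stood well below the other 4. Its change was -0.51 ± 0.06 in kd.2 (limma, adjusted p = 0.00086), called under every alternative, and 0.09 ± 0.06 in kd.1, which did not pass (0.315). The isomerases PDIA3, PDIA4 and PDIA6 passed in neither line, with changes between -0.13 and 0.12. Without control replicate 1, PDIA6 was called higher in kd.1 (0.16, limma adjusted p = 0.0143) and PDIA3 (0.13, 0.0387) and PDIA4 (0.16, 0.0438) in kd.2, and without control replicate 2 PDIA4 was called lower in kd.1 (-0.19, 0.0351).

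In the lectin cycle, which holds glycoproteins until they fold, the membrane lectin calnexin changed and its soluble relative calreticulin did not pass. CANX was at 335.85 and 334.43 FPKM in kd.1 and 321 and 308.15 FPKM in kd.2, against 278.6 and 237.63 FPKM in the control. It rose by 0.38 ± 0.09 in kd.1 and 0.29 ± 0.09 in kd.2 (limma, adjusted p = 0.0122 and 0.0285). The kd.1 call was lost without kd.1 replicate 1 (0.0777) or 2 (0.076). The kd.2 call was lost without any 1 of the kd.1 or kd.2 libraries (0.0547 to 0.185), without a filter (0.0519) and with only kd.2 and the control in the fit (0.0546), and without control replicate 2 the change in kd.2 was 0.17 (0.0211). CALR, with the highest level of the 37 genes, was at 560.49 and 618.02 FPKM in kd.1 and 631.8 and 623.99 FPKM in kd.2, against 612.83 and 618.43 FPKM in the control, and the changes were -0.06 ± 0.08 and 0.03 ± 0.08. UGGT1, which tags misfolded glycoproteins for another round, was at 18.39 and 18.86 FPKM in kd.1 and 14.14 and 14.48 FPKM in kd.2, against 15.45 and 13.67 FPKM in the control. It rose in kd.1 by 0.36 ± 0.08 (limma, adjusted p = 0.0104), a call lost without kd.1 replicate 1 (0.0578) or 2 (0.0811), and the kd.2 libraries lay between the controls.

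Of the 8 translocation and export genes, 3 rose and 1 fell in kd.1 (37.5% and 12.5%, against 15.8% and 13.4% of all tested genes), and 5 rose in kd.2 (62.5%, against 15.7%). SEC24D had the largest change of the list in each line (gene ID 9871; chromosome 4, 118722823 to 118838683, minus strand). It encodes a cargo-binding subunit of the COPII coat that buds vesicles from the ER. SEC24D was at 22.25 and 22.41 FPKM in kd.1 and 26.89 and 26.97 FPKM in kd.2, against 14.4 and 13.14 FPKM in the control. The groups did not overlap, and duplicates differed by little beside the gap between groups. SEC24D stood 1.62-fold above control in kd.1 and 1.95-fold above it in kd.2, log2 changes of 0.69 ± 0.07 and 0.96 ± 0.07 (limma, adjusted p = 0.000272 and 9.28e-05), under every alternative.

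SSR1, a subunit of the translocon-associated complex, was at 47.05 and 48.73 FPKM in kd.1 and 50.67 and 50.9 FPKM in kd.2, against 40.87 and 35.47 FPKM in the control. It rose by 0.33 ± 0.08 in kd.1 and 0.41 ± 0.08 in kd.2 (limma, adjusted p = 0.0136 and 0.00436); the kd.1 call was lost without kd.1 replicate 1 (0.0588) or 2 (0.0966). SEC63, which recruits BiP to the channel, was at 28.18 and 28.97 FPKM in kd.1 and 29.63 and 28.72 FPKM in kd.2, against 24.86 and 22.97 FPKM in the control. It rose by 0.26 ± 0.07 and 0.29 ± 0.07 (limma, adjusted p = 0.021 and 0.011). The SEC63 call in kd.1 was lost without any 1 of the kd.1 or kd.2 libraries (0.057 to 0.145) or with only kd.1 and the control in the fit (0.0571), and that in kd.2 without kd.2 replicate 1 (0.104) or 2 (0.0683).

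SEC61A1, the pore of the channel, was at 190.43 and 182.92 FPKM in kd.1 and 230.71 and 234.1 FPKM in kd.2, against 193.82 and 178.36 FPKM in the control. The kd.2 libraries were the highest and kd.1 overlapped the control. SEC61A1 rose in kd.2 by 0.32 ± 0.07 (limma, adjusted p = 0.0079), a call lost without kd.2 replicate 1 (0.0741) or 2 (0.082). Its exons share 344 bases with RUVBL1 on the opposite strand, which also rose in kd.2 (0.21 ± 0.06, limma adjusted p = 0.0248), so where strand was not used the reads in common cannot be told apart. SEC62, its partner in post-translational import, was at 33.87 and 33.47 FPKM in kd.1 and 40.22 and 38.7 FPKM in kd.2, against 32.99 and 35.19 FPKM in the control. It rose in kd.2 by 0.21 ± 0.06 (limma, adjusted p = 0.0293) and was not called there under 7 of 15 alternatives: without any 1 of the kd.1 or kd.2 libraries, without a filter, under plain moderation, or with only kd.2 and the control in the fit (0.0542 to 0.198).

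TRAM1, a membrane protein beside the channel (gene ID 23471; chromosome 8, 70573442 to 70608387), was at 124.43 and 123.59 FPKM in kd.1 and 175.54 and 175.9 FPKM in kd.2, against 170.09 and 152.22 FPKM in the control. The kd.1 libraries lay below both controls and the kd.2 libraries above both. TRAM1 fell by 0.38 on the log2 scale in kd.1 (SE 0.07, limma, adjusted p = 0.00549), under every alternative, and was 0.13 ± 0.07 above control in kd.2, which did not pass (0.176; 0.21 and 0.0039 without control replicate 1). SEC61B, the small beta subunit of the channel, was at 144.46 and 147.44 FPKM in kd.1 and 145.44 and 135.21 FPKM in kd.2, against 149.54 and 181.89 FPKM in the control, and its changes of -0.18 ± 0.09 and -0.23 ± 0.09 did not pass. Without control replicate 1, the lower control, SEC61B was called lower in each line (-0.32 and -0.38; limma adjusted p = 0.00179 and 0.000617). The signal peptidase subunit SPCS2 passed in neither line, and in kd.1 it was called lower without control replicate 1 (-0.13, 0.0473).

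Of the 7 ER degradation genes, 0 rose and 1 fell in kd.1 in limma (0% and 14.3%, against 15.8% and 13.4% of all tested genes; 2 were higher at an unadjusted p under 0.05). In kd.2, 2 rose and 2 fell (28.6% each, against 15.7% and 22.2%). SYVN1, the ubiquitin ligase HRD1, was at 21.95 and 21.59 FPKM in kd.1 and 23.85 and 24.69 FPKM in kd.2, against 19.33 and 19.06 FPKM in the control. All 4 knockdown libraries were above both controls. SYVN1 rose in kd.2 by 0.34 ± 0.06 (limma, adjusted p = 0.00432; 0.0576 without kd.2 replicate 2), and its 0.18 ± 0.06 in kd.1 did not pass (0.0559; 0.0222 without control replicate 1). Its annotated exons share 398 bases with FAU, a ribosomal protein gene on the same strand at 544.1 ± 15.5 FPKM in kd.2 and 545 ± 96.9 FPKM in the control, so the level of SYVN1 is uncertain. SEL1L, the adaptor of HRD1, was at 7.29 and 6.92 FPKM in kd.1 and 7.87 and 8.01 FPKM in kd.2, against 7.13 and 5.21 FPKM in the control, and its changes of 0.22 in kd.1 (0.242) and 0.38 in kd.2 (0.0519) did not pass. SEL1L was called higher in each line without control replicate 1 (0.44 and 0.60; limma adjusted p = 0.00198 and 0.000347), and in kd.2 also with a common FPKM sum (0.0488) and with median ratio scaling (0.0373).

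EDEM1, a mannosidase-like protein that hands over misfolded glycoproteins, was at 6.73 and 6.87 FPKM in kd.1 and 8.54 and 8.42 FPKM in kd.2, against 7.24 and 6.28 FPKM in the control. It rose in kd.2 by 0.33 ± 0.09 (limma, adjusted p = 0.0213), a call lost without kd.2 replicate 1 (0.128) or 2 (0.109). DERL2, a derlin of the retrotranslocation channel, was at 17.77 and 17.65 FPKM in kd.1 and 13.74 and 13.83 FPKM in kd.2, against 17.7 and 18.23 FPKM in the control. It fell by 0.38 in kd.2 (SE 0.06, limma adjusted p = 0.00296), under every alternative. OS9, a lectin that delivers glycoproteins to HRD1, was at 62.1 and 61.65 FPKM in kd.1 and 49.43 and 50.79 FPKM in kd.2, against 55.03 and 62.31 FPKM in the control. Its fall in kd.2 (-0.22 ± 0.07, limma adjusted p = 0.037) was not called under 10 of 15 alternatives (0.0544 to 0.203): without any 1 of the kd.1 or kd.2 libraries or control replicate 2, without a filter, under either scaling, under plain moderation, or with only kd.2 and the control in the fit. Without control replicate 2 OS9 stood at -0.13 in kd.2 and was called higher in kd.1 (0.17, limma adjusted p = 0.0283).

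HERPUD1, which stabilises the HRD1 complex (gene ID 9709; chromosome 16, 56932048 to 56944863), was at 50.28 and 46.28 FPKM in kd.1 and 69.27 and 67.08 FPKM in kd.2, against 60.02 and 62.53 FPKM in the control. The kd.1 libraries were below both controls and the kd.2 libraries above both. HERPUD1 fell by 0.34 in kd.1 (SE 0.07, limma, adjusted p = 0.00609), a call lost without kd.1 replicate 2, where the change was -0.28. Its 0.15 ± 0.07 in kd.2 did not pass (limma, adjusted p = 0.0939) and was 0.18 without control replicate 2. With a common FPKM sum its change in kd.2 was 0.25 and was called higher (limma, adjusted p = 0.023). DERL1, the other derlin, was at 36.3 and 35.61 FPKM in kd.1 and 35 and 35.54 FPKM in kd.2, against 32.2 and 31.83 FPKM in the control. It passed in neither line (without a control library, 0.0201 and 0.0456 in kd.1 and, without control replicate 1, 0.0362 in kd.2) and rose by 0.15 ± 0.05 over both (limma, adjusted p = 0.0438), a call lost under 7 of 15 alternatives: without any 1 of the kd.1 or kd.2 libraries, without a filter, under plain moderation, or with the replicate number as a block (0.0531 to 0.149).

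**Figure D3:**
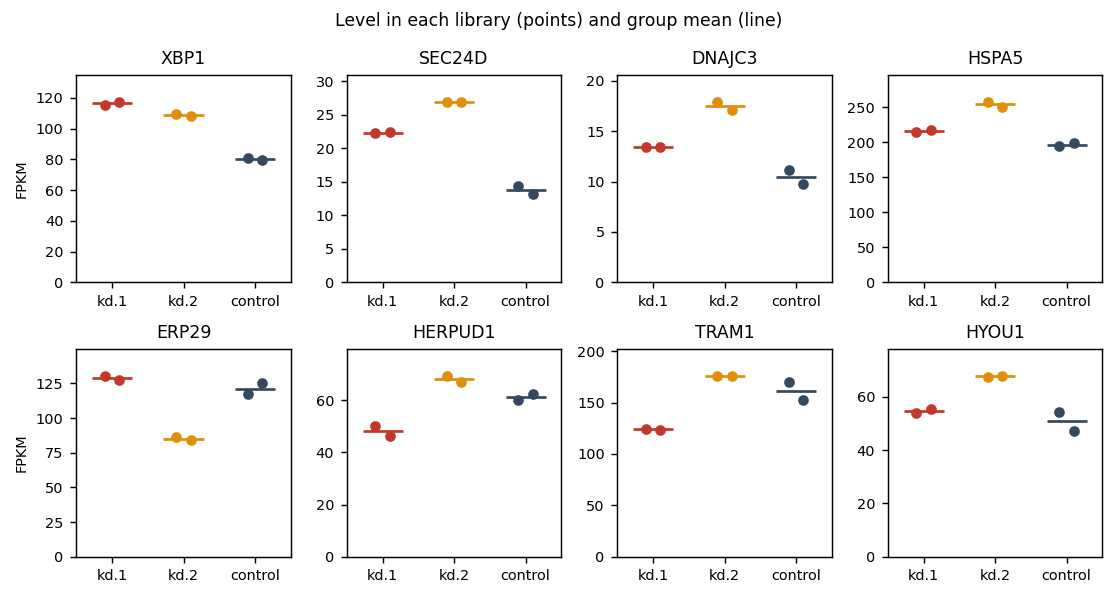
FPKM of 8 genes in each library (points) with the group mean (lines), for kd.1, kd.2 and control from left to right, on axes that start at 0. XBP1, SEC24D and DNAJC3 stand above the control in both lines, HSPA5 and HYOU1 rose in kd.2, ERP29 fell in kd.2, and HERPUD1 and TRAM1 fell in kd.1.

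The lines were then set against each other, a comparison of their libraries that does not use the control levels. Of the 37 genes, 10 were higher in kd.2 than in kd.1 (27%) and 5 were lower (13.5%), against 11.9% and 20.3% of all tested genes (32.2% in either direction). HERPUD1 was 0.50 ± 0.07 higher in kd.2 than in kd.1 (limma, adjusted p = 0.000818) and TRAM1 0.50 ± 0.07 higher (0.00103). ERP29 stood at -0.60 (SE 0.06, limma adjusted p = 0.000281) and DERL2 at -0.36 (SE 0.06, 0.00336). These 4 differences held under every alternative, and the other 11 did not.

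DNAJC3, SEC61A1, EDEM1, HYOU1, SEC24D, HSPA5, SEC62 and PDIA4 were higher in kd.2 by 0.23 to 0.38 on the log2 scale. UGGT1 was lower in kd.2, at -0.38 (SE 0.08, limma, adjusted p = 0.0065), OS9 at -0.30 (SE 0.07, 0.0125) and ERP44 at -0.25 (SE 0.07, 0.026). Each of these 11 calls was lost without at least 1 of the kd.1 or kd.2 libraries (limma, adjusted p = 0.0542 to 0.273). Fewer of the 37 were called when any 1 knockdown library was left out, and fewer of all tested genes were. With only kd.2 and kd.1 in the fit, 12 of the 37 were higher and 9 lower. Of all 10851 tested genes, 2216 were then higher and 3301 lower, against 1289 and 2207 with all libraries in the fit. With the columns scaled by median ratios, 11 of the 37 were higher and 4 lower. The share of all called genes that were higher in kd.2 then stood at 47.7%, against 36.9% as deposited. The sensors and XBP1 showed no called difference. XBP1 stood at -0.09 ± 0.06, ATF6 at 0.03 ± 0.14, EIF2AK3 at -0.03 ± 0.11 and ERN1 at -0.11 ± 0.13. In limma, 0 of these 4 passed at an unadjusted p under 0.05.

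**Figure D4:**
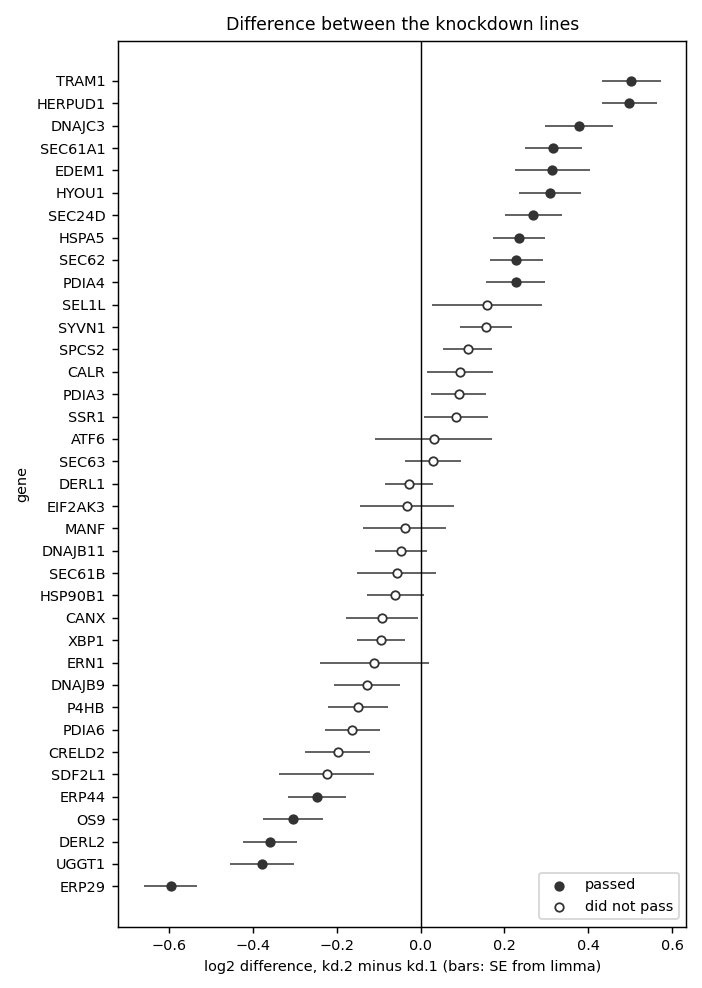
Log2 difference between the knockdown lines, kd.2 minus kd.1, for each gene, sorted, with SE bars from limma; filled points passed at an adjusted p under 0.05. TRAM1 and HERPUD1 lead at 0.50, and ERP29 is lowest at -0.60.

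The 10 genes with an ERSE or ERSE-II in the printed window did not form a uniform group. In kd.1, 3 of the 10 rose and 1 fell (15.8% and 13.4% of all tested genes), with log2 changes between -0.34 and 0.54. In kd.2, 4 rose and 1 fell (15.7% and 22.2% of all tested genes), with changes between -0.32 and 0.44. Their median was 0.11 in kd.1 and 0.20 in kd.2, and that of the 23 genes with neither element was 0.09 and 0.10. Of those 23, 8 rose and 0 fell in kd.1, and 9 rose and 3 fell in kd.2. Genes without a promoter entry are in neither group: PDIA3 (-0.02 in kd.1 and 0.07 in kd.2), SEC24D (0.69 and 0.96), TRAM1 (-0.38 and 0.13) and DERL1 (0.17 and 0.14). Among the carriers whose sequence is shown above, XBP1 and CANX rose in each line, HSPA5 in kd.2 and SDF2L1 in kd.1, CRELD2 fell in kd.2, HERPUD1 fell in kd.1 and CALR passed in neither.

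The other genes of the pathway were taken from 6 further lists. The COPII coat is the complex that SEC24D belongs to. Over both knockdowns, 8 of 9 listed genes rose and 1 fell (88.9% and 11.1%, against 16.1% and 18.6% of all tested genes). In kd.1, 5 rose and 1 fell (55.6% and 11.1%, against 15.8% and 13.4%). In kd.2, 6 rose and 0 fell (66.7% and 0%, against 15.7% and 22.2%). At an unadjusted p under 0.05 in limma, 7 were higher and 0 lower in kd.2. When any 1 knockdown library was left out, fewer of the 9 rose over both and in each line, and fewer of all tested genes did. SEC24A, another cargo adaptor, was at 12.75 and 13.1 FPKM in kd.1 and 15.7 and 16.05 FPKM in kd.2, against 10.8 and 8.77 FPKM in the control (0.41 ± 0.10 and 0.70 ± 0.10; limma adjusted p = 0.0167 and 0.00139). SEC23B, a subunit of the inner coat, rose by 0.41 ± 0.07 and 0.28 ± 0.07 (limma, adjusted p = 0.00426 and 0.0167). The SEC24A call in kd.1 was lost without kd.1 replicate 1 (0.0691) or 2 (0.095) and its change was 0.26 without control replicate 2, and the SEC23B call in kd.2 without kd.2 replicate 1 (0.092) or 2 (0.127).

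Of 33 other folding genes, 14 rose and 4 fell over both knockdowns (42.4% and 12.1%, against 16.1% and 18.6% of all tested genes). PDIA5, another protein disulfide isomerase, fell in each line and was at 16.53 and 18.52 FPKM in kd.1 and 17.25 and 18.54 FPKM in kd.2, against 29.17 and 28.56 FPKM in the control (-0.72 ± 0.08 and -0.69 ± 0.08; limma, adjusted p = 0.000387 and 0.000532). The thioredoxin-like TXNDC11 rose by 0.68 ± 0.06 in kd.1 (limma, adjusted p = 0.00018) and was 0.07 ± 0.06 from control in kd.2 (0.378). Of 22 other degradation genes, 3 rose and 3 fell (13.6% each), near the shares of all tested genes. EDEM3, a mannosidase, rose by 0.53 ± 0.11 and 0.75 ± 0.11 (0.01 and 0.00201; 0.0595 in kd.1 without kd.1 replicate 1, and a change of 0.35 there without control replicate 2), and the lectin ERLEC1 rose by 0.53 ± 0.06 and 0.32 ± 0.06 (0.000644 and 0.00557; 0.0683 and 0.0513 in kd.2 without kd.2 replicate 1 and 2).

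Of 25 other translocation and N-glycosylation genes, 4 rose and 5 fell over both knockdowns, shares of 16% and 20% that are near those of all tested genes (16.1% and 18.6%). SSR3, which sits in 1 complex with SSR1, was at 88.65 and 87.6 FPKM in kd.1 and 108.9 and 108.8 FPKM in kd.2, against 71.81 and 67.25 FPKM in the control (0.34 ± 0.06 and 0.65 ± 0.06; limma, adjusted p = 0.00454 and 0.000251). SRPRA, the receptor of the signal recognition particle, fell by 0.98 in kd.2 (SE 0.07, 9.28e-05), to 37.25 and 38.92 FPKM in kd.2, against 79.01 and 71.25 FPKM in the control, and was at 70.61 and 73 FPKM in kd.1. Among regulators of the sensors, 3 of 11 rose and 4 fell (27.3% and 36.4%, against the same 16.1% and 18.6%). MBTPS2, a protease that cuts ATF6, rose by 0.55 ± 0.12 and 0.50 ± 0.12 (0.00976 and 0.0115), with the kd.1 call lost without kd.1 replicate 2 (0.0642) and the kd.2 call without kd.2 replicate 1 (0.063) or 2 (0.0901), and changes of 0.36 and 0.31 without control replicate 2. TMBIM6, an ER membrane inhibitor of cell death, fell by 0.88 in kd.2 (SE 0.06, 9.75e-05) and not in kd.1 (-0.01 ± 0.06).

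In the ATF4 and CHOP branch, downstream of PERK, 7 of 14 genes rose and 1 fell in kd.1 (50% and 7.14%, against 15.8% and 13.4% of all tested genes), and 3 rose and 1 fell in kd.2 (21.4% and 7.14%, against 15.7% and 22.2%). Without control replicate 1, more of the 14 were called lower in kd.2, and so were more of all tested genes. Set against each other, 7 of the 14 were lower in kd.2 than in kd.1 and 0 were higher (limma, also 7 and 0 at an unadjusted p under 0.05), against 20.3% and 11.9% of tested genes. STC2, a secreted glycoprotein, was at 3.4 and 3.04 FPKM in kd.1 and 2.72 and 2.92 FPKM in kd.2, against 1.49 and 1.43 FPKM in the control (1.09 ± 0.11 and 0.90 ± 0.11; limma adjusted p = 0.000313 and 0.000781). ASNS, asparagine synthetase, rose by 0.85 ± 0.07 and 0.42 ± 0.07 (0.000162 and 0.00366; 0.0553 in kd.2 without kd.2 replicate 1).

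ASNS stood at -0.43 in kd.2 against kd.1 (SE 0.07, limma, adjusted p = 0.00306), while the -0.18 of STC2 did not pass (0.231). From the rest of the branch, the 4 genes given here were chosen after their values were seen. ATF4 itself, the transcription factor translated when PERK is active, was at 279.74 and 290.38 FPKM in kd.1 and 180.37 and 178 FPKM in kd.2, against 177.2 and 216.09 FPKM in the control. It rose in kd.1 by 0.54 ± 0.09 (limma, adjusted p = 0.00387), and in kd.2 its -0.13 ± 0.09 did not pass (0.299; -0.27 and 0.00151 without control replicate 1). CHAC1, which degrades glutathione, was at 6.55 and 5.51 FPKM in kd.1 and 2.82 and 2.7 FPKM in kd.2, against 2.58 and 3.7 FPKM in the control. It rose in kd.1 by 0.94 ± 0.16 (limma, adjusted p = 0.00402) and stood at -0.16 ± 0.16 in kd.2 (0.457; -0.41 and 0.0162 without control replicate 1). ATF3 rose in kd.1 by 0.51 ± 0.11 (limma, adjusted p = 0.01), a call lost without kd.1 replicate 1 (0.0544) or 2 (0.0819), and stood at -0.19 ± 0.11 in kd.2 (0.191). NUPR1, a small stress-induced nuclear protein, was at 85.85 and 74.26 FPKM in kd.1 and 48.3 and 46.19 FPKM in kd.2, against 56.52 and 70.54 FPKM in the control. It rose in kd.1 by 0.34 ± 0.11 and fell by 0.42 ± 0.11 in kd.2 (limma, adjusted p = 0.0462 and 0.0177). Its kd.1 call was lost under 10 of 15 alternatives, among them every library left out except control replicate 2 (0.0556 to 0.256; a change of 0.18 without control replicate 1). Its kd.2 call was lost without kd.2 replicate 1 (0.0865) or 2 (0.119), and the change was -0.26 without control replicate 2. Set against each other, the lines differed in these 4 genes by -0.67, -1.10, -0.70 and -0.76 in that order, kd.2 minus kd.1 (limma, adjusted p = 0.00102 to 0.00183). The p-values do not allow for that choice, and the 4 genes do not stand for the branch. Of its 14 tested genes, 7 showed no called difference between the lines.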

How the data were processed

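Total RNA of 6 HLE libraries was sequenced, and the submitters deposited 1 table with a value per gene and library. The deposited values were taken as FPKM from the numbers themselves, since no header or label names the unit; HISAT2 2.0.4, Bowtie2 2.2.5 and RSEM 1.2.12 are named in the submitters' processing notes, as is the build (GRCh38.p11, hg38), without the step each served. How strand and reads shared between overlapping genes were counted is not given in the sources used here, and many of the 37 genes overlap another annotated gene. The columns summed to unequal totals and were used as deposited. Absolute read depth is unknown, so no counting interval is given. Of 21372 features, 1869 without a gene symbol were left out.

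From these values log2(FPKM + 0.1) was computed, which understates changes of low genes, and genes with at least 1 FPKM in at least 2 libraries were kept. Each group had its own mean in limma 3.58.1 (R 4.3.3) with trended, robust moderation, and all 6 libraries gave 1 spread per gene with 3 residual degrees of freedom. P-values were adjusted over the 10851 genes within each of 4 comparisons. With 2 libraries against 2, an exact permutation test cannot go below 0.333, so none is given. Gene positions are from GENCODE 29 (GRCh38). The 37 genes, the further lists and the rule for naming were chosen with earlier results of these data known. All 37 genes could be named, and from each further list up to 4 genes with the smallest p over both knockdowns, of which the first 2 are given. ATF4, CHAC1, ATF3 and NUPR1 were named after their values were seen. Alternatives were other pseudocounts, filters and scalings, plain moderation, a replicate block, a fit of only the groups compared, and leaving out each library.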

Additional observations from a re-analysis of the deposited data

Results flagged for a closer look

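For 15 of the 37 genes the effect in kd.2 differed from that in kd.1 by limma's test of the difference itself (adjusted p under 0.05; 32.2% of all tested genes passed it). HERPUD1 and TRAM1 differed by 0.50 each on the log2 scale, kd.2 minus kd.1. DNAJC3 differed by 0.38, SEC61A1 by 0.32, HYOU1 and EDEM1 by 0.31, SEC24D by 0.27, and HSPA5, PDIA4 and SEC62 by 0.23. ERP29 was lowest at -0.60, followed by UGGT1 at -0.38, DERL2 at -0.36, OS9 at -0.30 and ERP44 at -0.25. The differences of HERPUD1, TRAM1, ERP29 and DERL2 passed under all 15 alternatives, and each of the other 11 was lost without at least 1 knockdown library. Each shRNA is represented by 1 line, so the shRNA and the line cannot be told apart.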

How the results depend on the processing

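Over 4 comparisons the 37 genes gave 65 calls, of which 20 passed under all 15 alternatives, 45 were lost without at least 1 library and 18 under another setting. Of 2216 values compared with those as deposited, 1985 kept their side of the threshold, 168 no longer passed, 63 passed newly, and no called value changed direction. Leaving out 1 library at a time, risen and fallen genes ranged from 2 to 17 and 1 to 5 in kd.1, 6 to 20 and 2 to 6 in kd.2, 8 to 18 and 0 to 6 over both knockdowns, and 2 to 12 and 2 to 9 for kd.2 against kd.1. The low ends came from leaving out a knockdown library and the high ends from leaving out a control library. The numbers of all tested genes called had their low and high ends in the same kinds of fit. The cause was not tested. In such a fit the lone library of a group is assumed to vary like the other groups. The median log2 change then ranged from 0.07 to 0.12 in kd.1, 0.13 to 0.15 in kd.2, 0.08 to 0.16 over both, and -0.03 to 0.01 for kd.2 against kd.1.

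With a common FPKM sum the medians were 0.19 in kd.1, 0.24 in kd.2, 0.24 over both and -0.01 for kd.2 against kd.1, and the fallen genes numbered 2 in kd.2 and 0 over both; the share of called genes over both that were higher stood at 68.3%, against 46.5% as deposited. A common FPKM sum gave 10 new calls over the 4 comparisons and lost 9. Newly called higher were HSPA5, SYVN1 and DERL1 in kd.1, HERPUD1, P4HB, SDF2L1, SEL1L and DERL1 in kd.2, and SEC61A1 and SEC62 over both. With median ratio scaling the medians were 0.09 in kd.1, 0.17 in kd.2 and 0.02 for kd.2 against kd.1, which was 0.00 with a filter of 5 FPKM. Median ratio scaling gave 4 new calls, among them P4HB, SEL1L and DERL1 in kd.2, and lost 2. With only kd.2 and kd.1 in the fit, 9 were lower in kd.2. Over all tested genes, replicate deviations correlated at 0.022 (kd.1 and control), -0.0874 (kd.2 and control) and 0.183 (kd.2 and kd.1). These values cannot settle whether libraries of the same replicate number were handled together. With the replicate block, 12 rose and 2 fell in kd.1 and 14 and 4 in kd.2. The block gave 13 and 3 over both, and 9 and 5 for kd.2 against kd.1. The duplicates and the unknown depth limit all of these values.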
